A study of Mus musculus with 21 samples.

Results

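Chemokine receptors decide which tissue a monocyte leaves and which it enters, and 7 of their genes, Ccr1, Ccr2, Ccrl2, Cx3cr1, Cxcr2, Cxcr3 and Cxcr4, were followed here in inflammatory monocytes (IMs) of the mouse. The members were taken by gene symbol from a raw count table of 23420 genes, and all 7 were present in it and passed the filter on low counts in every comparison. The IMs had been enriched with a monocyte isolation kit and sorted as live cells positive for CD45 and CD11b, high for Ly6C and negative for Ly6G and Siglec-F, the last a marker of eosinophils and alveolar macrophages. Tumor-infiltrating IMs (TIMs) came from 2 models of lung squamous cell carcinoma. In the first, KAL-LN2-E1 (LN2E1) cells were placed orthotopically in the lung of FVB mice (500000 cells each), and TIMs were sorted from the primary tumor (n = 5) and from lymph node metastases (n = 5). In the second, LN4K1 cells were given intravenously to DBA2 mice (300000 cells each), and TIMs were sorted from the tumor-bearing lung (n = 5). IMs from the bone marrow (BM) of naive FVB (n = 3) and naive DBA2 (n = 3) mice, which carried no tumor, were the controls. Each model rests on 1 cell line in 1 strain, so the host strain, the tumor line, the route and number of cells injected and the tissue sorted cannot be told apart between the models. No IMs of healthy lung or lymph node were analysed here, and tumor tissue was digested whereas marrow was not. The mice were adults of both sexes.

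CCR2 is the receptor by which Ly6C-high monocytes leave the marrow and follow CCL2 and its relatives into inflamed tissue, whereas CXCR4 binds CXCL12 and holds leukocytes in the marrow. CX3CR1 binds fractalkine and is low in Ly6C-high and high in Ly6C-low monocytes, and CCR1 binds inflammatory chemokines such as CCL3 and CCL5. CXCR2 is the main chemokine receptor of neutrophils, CXCR3 binds the interferon-induced chemokines CXCL9, CXCL10 and CXCL11 and is known from T cells, NK cells and plasmacytoid dendritic cells, and CCRL2 is an atypical receptor that binds chemerin without signaling as the others do.

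The 4 genes Ccr1 (chr9:123962124-123968692, minus strand), Ccr2 (chr9:124101950-124113557, plus strand), Ccrl2 (chr9:111054486-111057519, minus strand) and Cx3cr1 (chr9:119901616-120069879, minus strand) lie on chromosome 9 of GRCm38. Cxcr2 (chr1:74153989-74161246, plus strand) and Cxcr4 (chr1:128588199-128592293, minus strand) lie on chromosome 1, and Cxcr3 (chrX:101731535-101734269, minus strand) lies on chromosome X. All 7 are annotated as protein coding. An exon of Cx3cr1 overlaps Gm33858 on the opposite strand, and since the libraries were not stranded, reads of the 2 genes cannot be told apart there. The 250 bases upstream of the RefSeq start (GRCm38.p6) are shown for the 3 members whose values stand out below, Ccr1 and Cxcr4, which moved in opposite directions in every comparison of TIMs with BM IMs, and Cxcr2, whose change differed between the models. Each runs 5′ to 3′ on the strand of its gene, with motif matches in capitals.
Ccr1: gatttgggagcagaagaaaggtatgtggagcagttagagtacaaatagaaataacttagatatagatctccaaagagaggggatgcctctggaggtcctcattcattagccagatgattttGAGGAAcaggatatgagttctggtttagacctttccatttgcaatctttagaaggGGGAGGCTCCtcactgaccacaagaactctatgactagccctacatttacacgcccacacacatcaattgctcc
Cxcr4: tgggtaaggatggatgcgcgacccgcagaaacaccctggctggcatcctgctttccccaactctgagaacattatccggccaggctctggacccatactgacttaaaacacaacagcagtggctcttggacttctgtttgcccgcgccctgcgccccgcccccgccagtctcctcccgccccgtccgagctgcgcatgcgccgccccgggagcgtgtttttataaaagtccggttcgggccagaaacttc
Cxcr2: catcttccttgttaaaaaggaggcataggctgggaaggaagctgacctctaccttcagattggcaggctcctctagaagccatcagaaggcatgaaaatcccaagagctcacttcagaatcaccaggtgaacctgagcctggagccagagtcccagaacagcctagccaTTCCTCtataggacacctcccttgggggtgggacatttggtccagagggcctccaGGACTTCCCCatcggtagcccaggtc
They lie at chr9:123968693-123968942, chr1:128592300-128592549 and chr1:74153744-74153993. The motifs searched on both strands were HIF (ACGTG), PU.1 (GAGGAA), C/EBP (TTGCNNAA), AP-1 (TGANTCA), NF-kB (GGG and CC with any 5 bases between), ISRE (2 copies of GAAA with any 2 bases between) and GAS (TTCNNNGAA). In Ccr1 the capitals mark a PU.1 match whose first base is at -129 and an NF-kB match at -74 from the start, both on the strand shown. In Cxcr2 they mark a PU.1 match at -81 and an NF-kB match at -26, both on the opposite strand. The Cxcr4 window held none of the 7 motifs. Of 32851 upstream windows of the same length, 23.3% held the PU.1 letters and 45.8% the NF-kB letters, so such matches are common, and no match was tested for binding.

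The 21 libraries held between 80772922 and 101043568 counts, so that 3 counts in a library corresponded to between 0.0268 and 0.0405 CPM, the unit of the levels below, in which counts are scaled to a common library size by the TMM method. Over 8016 genes, the median correlation of a library with the others of its group was 0.89 for lymph node TIM replicate 1 and 0.905 for lung TIM replicate 3, and at least 0.961 for the other 19 libraries. The classical monocyte markers Ly6c2, Itgam and Csf1r were detected in every group, with group means of 1245 to 3023 CPM, 352 to 1408 CPM and 791 to 2859 CPM. Beside them, the summed level of 8 markers of nonclassical monocytes was 306 to 586 CPM for FVB marrow, 2919 to 5384 CPM in LN2E1 TIMs, 731 to 851 CPM in DBA2 BM IMs and 2019 to 3803 CPM in lung TIMs. Macrophage markers (7 of 7 detected in every group) summed to 1288 to 1436 CPM for FVB marrow, 2307 to 3765 CPM in LN2E1 TIMs, 865 to 2036 CPM in DBA2 BM IMs and 3924 to 5571 CPM in lung TIMs. By single gene, 3 of them rose in primary tumor TIMs, 2 in lymph node TIMs and 2 in lung TIMs, at an adjusted p under 0.05 by edgeR. In lung TIMs 1 fell, and 4, 5 and 4 did not pass. Eosinophil and basophil markers were between 437 and 1216 CPM in BM IMs and between 2.26 and 179 CPM in TIMs. These marker sums moved with the groups, though not every gene of a list did, and their part in the results below was not tested. In such bulk libraries, fewer cells of a type and less RNA per cell cannot be told apart.

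To learn how the receptors differ between monocytes in tumors and in the marrow of healthy mice, TIMs of each site were compared with naive BM IMs of the same strain. The test was the quasi-likelihood one of edgeR, run on the whole table, with Benjamini-Hochberg adjustment. A gene was called changed where its adjusted p was below 0.05. It was a differentially expressed gene (DEG) where the stricter thresholds of the study were met, an adjusted p below 0.0001 with a log2 fold change of more than 1 in size. Ccr1 rose and Cxcr4 fell in all 3 comparisons, and the remaining members differed from site to site. In primary tumor TIMs 4 members rose (Ccr1, Ccr2, Ccrl2 and Cxcr2) and Cxcr4 fell, where 33.3% of all genes tested were higher and 28.6% lower. In lymph node TIMs 5 rose (Ccr1, Ccrl2, Cx3cr1, Cxcr2 and Cxcr3) and Cxcr4 fell, where 20.2% of all genes were higher and 17.2% lower. In lung TIMs only Ccr1 and Ccr2 rose and Cxcr4 fell, where 13.9% of all genes were higher and 11.0% lower. The median log2 fold change of the 7 members was 0.65, 0.94 and 0.46 in primary tumor, lymph node and lung TIMs, beside 0.08, -0.04 and 0.03 over all genes. DEGs were Ccr1 and Cxcr4 in primary tumor TIMs (12.9% of all genes were DEGs), Ccr1 in lymph node TIMs (5.71%) and Ccr1 and Cxcr4 in lung TIMs (2.97%). With shrunken fold changes of DESeq2, the tool for which the study set these thresholds, Cxcr2 was a DEG as well in primary tumor (3.23) and lymph node TIMs (1.88). DESeq2 called more DEGs over all genes, 4004 of 16700 in primary tumor and 2402 of 14111 in lymph node TIMs. The comparisons of primary tumor and lymph node TIMs share the FVB BM IM libraries. Levels scaled by the total count alone, without the TMM method, shifted the median of all genes by -0.19, -0.29 and -0.30 (log2) in the 3 comparisons. On that scale the mean differences of the members called changed kept their signs. Without lymph node TIM replicate 1, the library that stood apart most, the 6 members that passed in lymph node TIMs were the same, with Ccr1 at 1.79 (adjusted p = 0.000104 by edgeR, no longer a DEG), Cx3cr1 at 0.91, Cxcr2 at 1.92 and Cxcr3 at 2.26. Without lung TIM replicate 3, Ccr1 (1.89), Ccr2 (0.95) and Cxcr4 (-2.13) passed as before, and Ccrl2 passed as well.

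**Figure D1:**
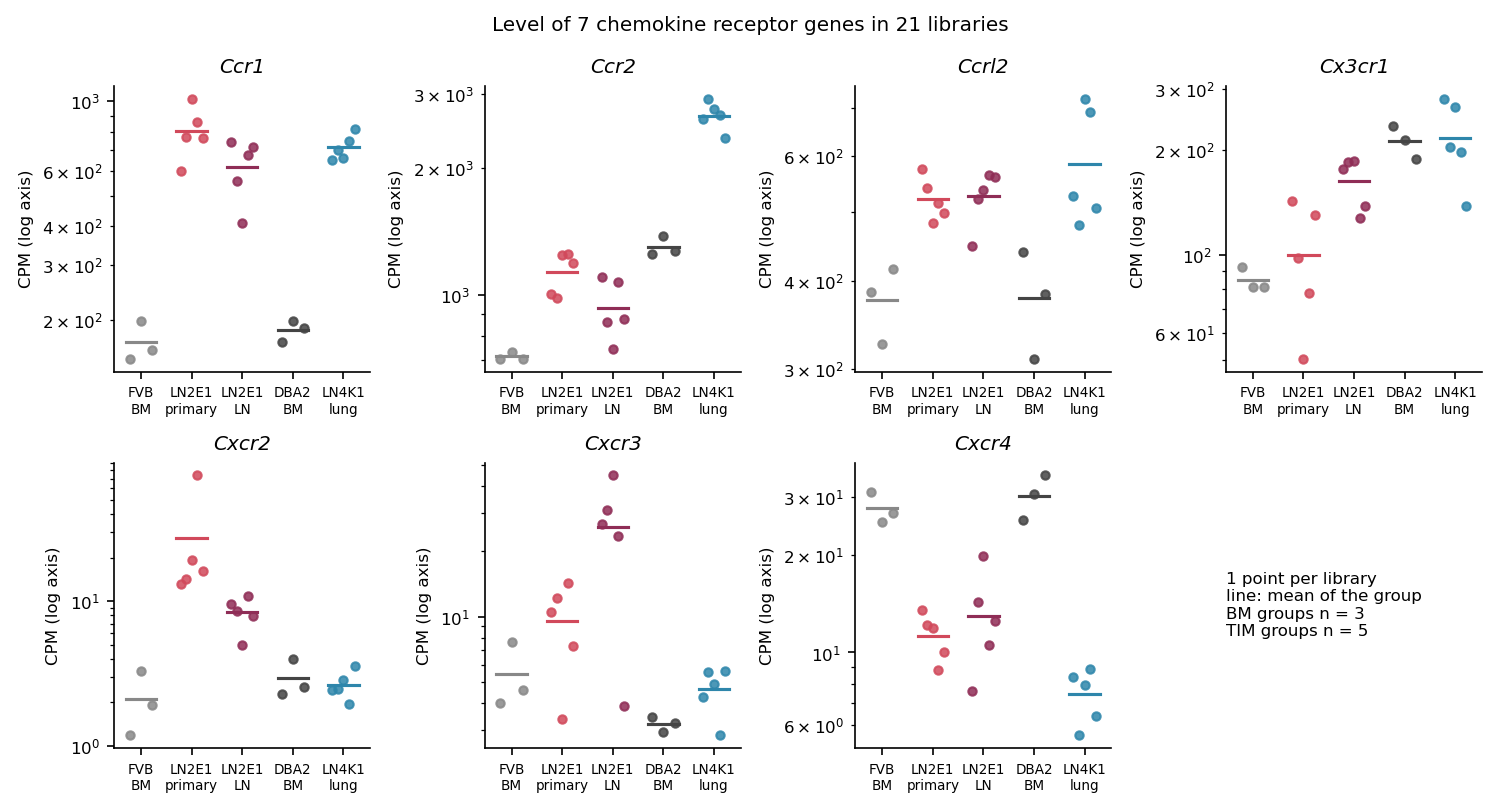
Level of each receptor gene in CPM (log axis) in every library, by group, with the group mean as a line. Ccr1 was above every BM IM library in all 15 TIM libraries, Cxcr4 was below every BM IM library in all 15, and Cxcr2 was above every FVB BM IM library in each LN2E1 TIM library.

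Ccr1, a receptor of inflammatory CC chemokines, rose at all 3 sites. Its level was 150.3, 198 and 161 CPM in FVB BM IMs, 597, 772, 1017, 859 and 765 CPM in primary tumor TIMs and 741, 558, 407, 673 and 713 CPM in lymph node TIMs. In DBA2 BM IMs it was 169.6, 199 and 189 CPM, and in lung TIMs 647, 701, 659, 747 and 814 CPM. Every TIM library was above every BM IM library, in both strains. Ccr1 was 4.66-fold higher in primary tumor TIMs (log2 fold change 2.22, SE 0.18, adjusted p = 7.16e-06 by edgeR), 3.64-fold higher in lymph node TIMs (1.86, SE 0.21, adjusted p = 9.3e-05) and 3.64-fold higher in lung TIMs (1.86, SE 0.12, adjusted p = 6.69e-06). It passed in each of the fits that left out 1 library. It kept the threshold of a DEG in 8 of 8 such fits in primary tumor TIMs, 1 of 8 in lymph node TIMs and 5 of 8 in lung TIMs. The change in primary tumor TIMs and that in lung TIMs differed by 0.38 on the log2 scale (SE 0.21), which did not pass (adjusted p = 0.192). Summed over the 7 members per kilobase of exon, Ccr1 made up 17.3% ± 2.86 (SD) of the receptor level in FVB BM IMs, 40.5% ± 5.04 in primary tumor TIMs and 34.9% ± 5.38 in lymph node TIMs, and 14.0% ± 1.44 in DBA2 BM IMs against 27.3% ± 3.52 in lung TIMs.

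Cxcr4, the receptor of CXCL12, moved the other way. It measured 31.2, 25.2 and 26.8 CPM in FVB BM IMs, 13.5, 12.1, 11.9, 8.83 and 10.0 CPM in primary tumor TIMs and 7.62, 14.3, 19.8, 10.6 and 12.5 CPM in lymph node TIMs. It was 25.4, 30.7 and 35.0 CPM in DBA2 BM IMs and 8.43, 5.56, 7.97, 8.92 and 6.36 CPM in lung TIMs, so again no TIM library reached a BM IM library. The decrease was 2.49-fold in primary tumor TIMs (log2 fold change -1.32, SE 0.16, adjusted p = 7.19e-05 by edgeR), 2.14-fold in lymph node TIMs (-1.10, SE 0.29, adjusted p = 0.0133) and 4.30-fold in lung TIMs (-2.10, SE 0.20, adjusted p = 5.98e-05). In lymph node TIMs the call was lost without FVB BM IM replicate 1 (adjusted p = 0.0613), and without lymph node TIM replicate 1, the library least like its group, the log2 fold change was -0.95 (adjusted p = 0.00857). The DEG call in primary tumor TIMs was lost in each of the 8 fits without 1 library, where adjusted p ran from 0.000111 to 0.000554. In lung TIMs the DEG call was kept in 1 of 8. The decrease was larger in lung TIMs than in primary tumor TIMs by 0.80 on the log2 scale (SE 0.26, adjusted p = 0.0309, interaction term of edgeR), a difference that passed in 8 of 16 fits without 1 library. Eosinophil and basophil markers were also at their lowest in the TIM groups (2.26 to 179 CPM), in cells from which the gate left out those positive for Siglec-F, such as eosinophils. Their part in the fall of Cxcr4 was not tested.

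**Figure D2:**
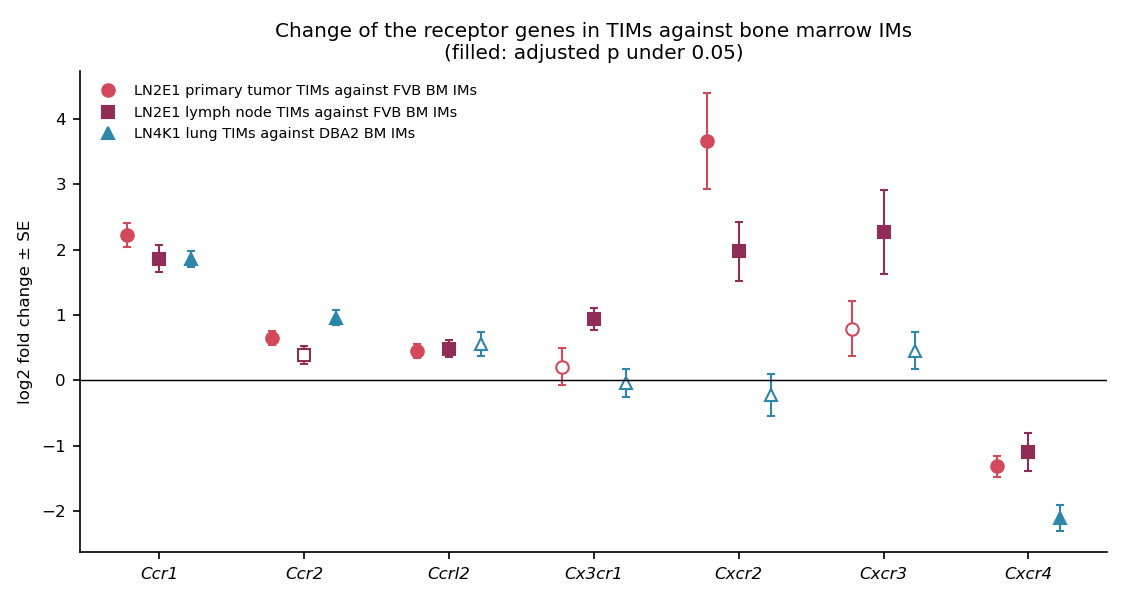
Log2 fold change with its SE of each receptor gene in primary tumor, lymph node and lung TIMs against BM IMs of the same strain, with filled symbols for an adjusted p under 0.05. Ccr1 lies near 2 in all 3, Cxcr4 lies below -1 in all 3, and Cxcr2 reaches 3.66 in primary tumor TIMs and -0.23 in lung TIMs.

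Ccr2, the receptor that defines this monocyte subset, was among the most highly expressed members and rose less than Ccr1. Its level was 705, 733 and 704 CPM in FVB BM IMs, 1002, 982, 1241, 1248 and 1191 CPM in primary tumor TIMs and 1100.4, 864, 745, 1075 and 877 CPM in lymph node TIMs. In DBA2 mice it was 1247, 1379 and 1273 CPM in BM IMs and 2617, 2918, 2756, 2676 and 2353 CPM in lung TIMs. With TMM scaling every TIM library was above the BM IM libraries of its strain, in the lymph node by a small margin. Scaled by the total count alone, lymph node TIM and FVB BM IM libraries overlapped. Their mean difference was then 0.08 on the log2 scale, beside 0.37 with TMM. The increase was 1.56-fold in primary tumor TIMs (log2 fold change 0.65, SE 0.11, adjusted p = 0.000627 by edgeR) and 1.95-fold in lung TIMs (0.96, SE 0.11, adjusted p = 0.000269). In lymph node TIMs the log2 fold change of 0.38 (SE 0.14) missed the threshold (adjusted p = 0.0568) and was within it with all 5 groups in 1 fit, with DESeq2 and without lymph node TIM replicate 3. Ccr2 was also higher in DBA2 than in FVB BM IMs, by 0.89 on the log2 scale (SE 0.08, adjusted p = 0.000422), and 1 primary tumor TIM library, at 1248 CPM, reached the range of naive DBA2 monocytes.

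Cx3cr1, the fractalkine receptor of patrolling monocytes, rose in lymph node TIMs and did not pass in the other comparisons of TIMs with BM IMs. It was 92.8, 81.4 and 81.3 CPM in FVB BM IMs, 143, 98.1, 50.5, 77.9 and 131 CPM in primary tumor TIMs and 177, 185, 187, 128 and 138 CPM in lymph node TIMs. All lymph node libraries were above the BM IM libraries, while the primary tumor libraries lay on both sides of them. The increase in lymph node TIMs was 1.92-fold (log2 fold change 0.94, SE 0.16, adjusted p = 0.00144 by edgeR), against 0.21 (SE 0.29, adjusted p = 0.549) in primary tumor TIMs. In DBA2 mice Cx3cr1 was 235, 214 and 189 CPM in BM IMs and 281, 204, 266, 198 and 138 CPM in lung TIMs, which overlapped, with a log2 fold change of -0.04 (SE 0.22, adjusted p = 0.914). The strains differed before any tumor, as Cx3cr1 was higher in DBA2 than in FVB BM IMs by 1.34 on the log2 scale (SE 0.11, adjusted p = 0.000204), and both strain differences, in Ccr2 and in Cx3cr1, passed in all 6 fits without 1 library. These were the only members to differ between the strains, where 11.5% of all genes were higher and 9.57% lower in DBA2.

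Since Ly6C-high and Ly6C-low monocytes are told apart by CCR2 and CX3CR1, the ratio of the 2 genes was taken within each library, per kilobase of exon, which needs no scaling between libraries. Ccr2 exceeded Cx3cr1 in all 21 libraries. The ratio of Ccr2 to Cx3cr1 was 5.06, 6.0 and 5.77 in FVB BM IMs, 4.67, 6.67, 16.4, 10.7 and 6.07 in primary tumor TIMs, 4.14, 3.11, 2.65, 5.59 and 4.22 in lymph node TIMs, 3.54, 4.30 and 4.50 in DBA2 BM IMs and 6.21, 9.54, 6.91, 9.03 and 11.3 in lung TIMs. All lung TIM libraries were above all DBA2 BM IM libraries, and lymph node TIMs overlapped primary tumor TIMs in part. The log2 ratio of Cx3cr1 to Ccr2 was lower in lung TIMs than in DBA2 BM IMs by 1.04 (difference -1.04, two-sided exact permutation test, p = 0.0179, the smallest 3 against 5 libraries allow, adjusted p = 0.0446 over 5 comparisons). It was higher in lymph node than in primary tumor TIMs by 1.07 (exact permutation test, p = 0.0159, adjusted p = 0.0446). The lung call was lost in all 8 tests without 1 library. There even complete separation could not pass after adjustment, so the loss was fixed in advance and says nothing about the difference. The call between the LN2E1 sites was kept without primary tumor replicate 1 or lymph node replicate 4 and lost in the others. Unlike in the lung tests, leaving out 1 library did not raise the smallest p there, so complete separation could still have passed. The ratio did not differ detectably between primary tumor TIMs and FVB BM IMs (-0.52, exact permutation p = 0.25), lymph node TIMs and FVB BM IMs (0.55, p = 0.0714) or the strains (0.45, p = 0.1, the smallest that 3 against 3 allow).

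**Figure D3:**
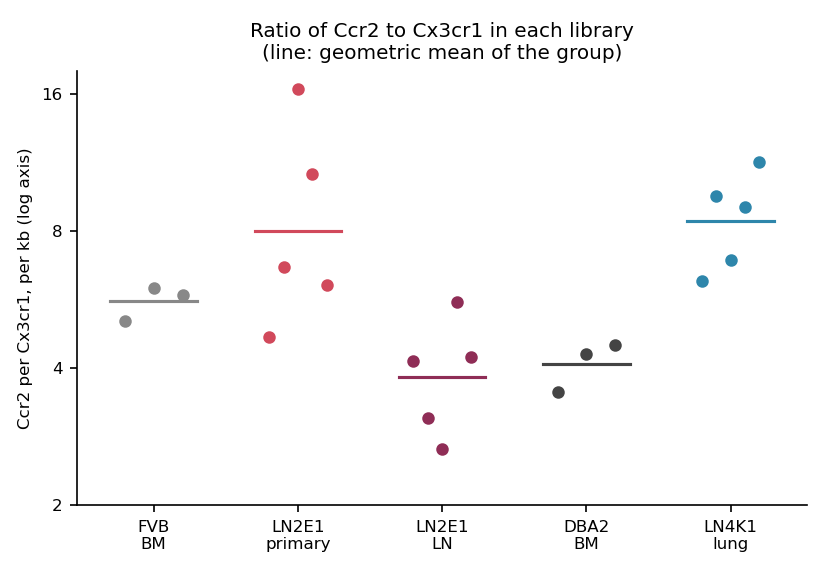
Ratio of Ccr2 to Cx3cr1, each per kilobase of exon, in every library (log axis), with the geometric mean of each group as a line. Lung TIMs lie between 6.21 and 11.3, above DBA2 BM IMs at 3.54 to 4.50, and lymph node TIMs lie lowest, down to 2.65.

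Ccrl2, the atypical chemerin receptor, moved little. Marrow libraries of FVB mice spanned 325 to 416 CPM, those of primary tumor TIMs 482 to 575 CPM and those of lymph node TIMs 447 to 564 CPM. In DBA2 mice the spans were 310.2 to 439 CPM for marrow and 478 to 721 CPM for lung TIMs. With TMM scaling no TIM library overlapped the BM IM libraries of its strain, yet the changes were small. Scaled by the total count alone, the libraries overlapped in all 3 comparisons. The mean differences were then 0.29, 0.20 and 0.33 on the log2 scale in primary tumor, lymph node and lung TIMs, beside 0.48, 0.49 and 0.62 with TMM. The log2 fold change was 0.45 in primary tumor TIMs (SE 0.11, adjusted p = 0.00436 by edgeR), 0.49 in lymph node TIMs (SE 0.13, adjusted p = 0.0129) and 0.55 in lung TIMs (SE 0.18, adjusted p = 0.0528), so that the largest of the 3 estimates was the one that did not pass. Without lung TIM replicate 3, one of the 2 libraries that stood apart, the lung value was 0.47 and passed (adjusted p = 0.0409), and the lymph node call was lost when FVB BM IM replicate 2 was left out (adjusted p = 0.0827). The change in primary tumor TIMs minus that in lung TIMs was -0.08 (SE 0.21, adjusted p = 0.837). Per kilobase, Ccrl2 was the most abundant member in FVB BM IMs, at 41.4% ± 4.24 (SD, n = 3) of the summed receptor level.

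**Figure D4:**
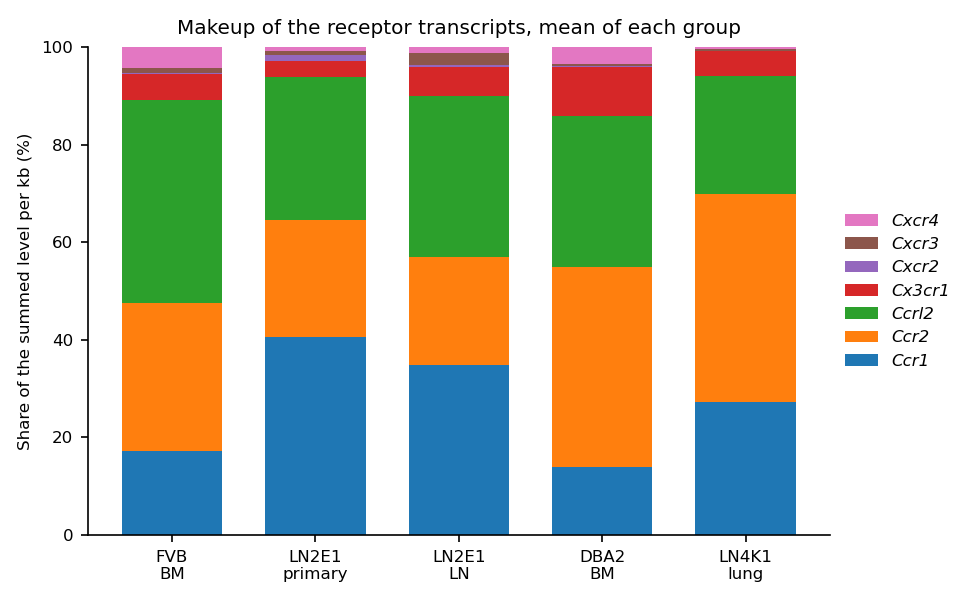
Mean share of each receptor gene in the summed level of the 7 genes per kilobase of exon, in percent, for the 5 groups. Ccr1, Ccr2 and Ccrl2 fill most of every bar, Ccr1 grows from 17.3% to 40.5% in primary tumor TIMs, and Cxcr4 shrinks from 4.40% to 0.907%.

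Cxcr2, the neutrophil receptor, was the member with the largest difference between the models. It was at 1.18, 3.28 and 1.90 CPM in FVB BM IMs (104 to 322 counts), at 13.2, 14.1, 19.2, 73.8 and 16.1 CPM in primary tumor TIMs and at 9.51, 8.57, 4.94, 10.8 and 7.88 CPM in lymph node TIMs. In DBA2 mice it was 2.27, 3.99 and 2.53 CPM in BM IMs and 2.42, 2.48, 2.85, 1.95 and 3.54 CPM in lung TIMs. Every LN2E1 library was above every FVB BM IM library, primary tumor replicate 4 was far above the rest, and the DBA2 groups overlapped. The increase was 12.6-fold in primary tumor TIMs (log2 fold change 3.66, SE 0.74, adjusted p = 0.00216 by edgeR), and without primary tumor replicate 4 it was 2.87 on the log2 scale (SE 0.35, adjusted p = 0.000229). In lymph node TIMs it was 3.93-fold (log2 fold change 1.98, SE 0.45, adjusted p = 0.00682), and in lung TIMs -0.23 on the log2 scale (SE 0.32, adjusted p = 0.662). The change in primary tumor TIMs exceeded that in lung TIMs by 3.91 (SE 0.75, adjusted p = 0.00209, interaction term), which passed in all 16 fits without 1 library. Lymph node TIMs were lower than primary tumor TIMs by 1.70 on the log2 scale (log2 fold change -1.70, SE 0.49, adjusted p = 0.0441), a call that passed in 3 of 10 fits without 1 library and was -0.91 without primary tumor replicate 4 (adjusted p = 0.0491) and -1.75 without lymph node replicate 1 (adjusted p = 0.0538).

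Neutrophil markers were read beside Cxcr2, since the gate excluded Ly6G-positive cells. The sum of the 10 markers was 4371 to 5528 CPM for FVB marrow, 1102 to 2118 CPM for primary tumor TIMs and 647 to 1107 CPM for lymph node TIMs, where Camp was at 3 counts or fewer in every library, and to 1933 to 2609 CPM in DBA2 BM IMs and 1464 to 2379 CPM in lung TIMs. In FVB mice the sum was lower in the TIM groups, but its genes did not move together. Of the 10, 2 rose and 6 fell in primary tumor TIMs and 1 rose and 7 fell in lymph node TIMs. Csf3r, the receptor of G-CSF, was 237 to 311 CPM in FVB marrow and higher in both (451 to 686 and 352 to 515 CPM, adjusted p = 0.000255 and 0.0111), and Mmp8, a granule collagenase, was higher in primary tumor TIMs (534 to 754 against 391 to 476 CPM, adjusted p = 0.00878). Within primary tumor TIMs, replicate 4 was highest for the sum (2118 CPM) and for 7 of the 10 markers, with S100a9, a calcium-binding alarmin, at 328 CPM against 31.7 to 62.7 CPM in the other 4 libraries and Mmp9, a granule gelatinase, at 68.5 CPM against 5.37 to 9.99 CPM. The markers Camp, Mmp8 and Ngp were highest in other libraries, Mmp8 at 558 CPM in replicate 4 against 754 CPM in replicate 3 and Ngp at 6.60 against 33.6 CPM in replicate 1. In FVB BM IMs, the group with the lowest mean of Cxcr2, S100a9 was 593 to 857 CPM and Mmp9 was 2.25 to 6.04 CPM. The part of such cells in the level of Cxcr2 was not tested.

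**Figure D5:**
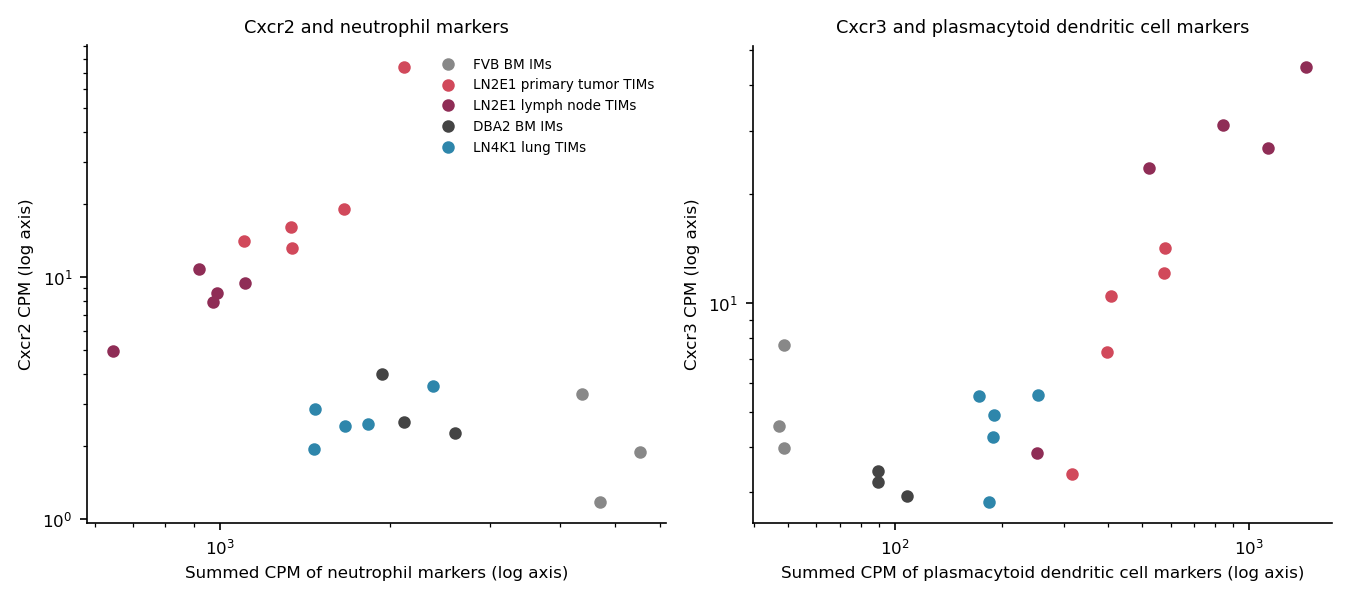
Cxcr2 against the summed level of 10 neutrophil markers (left) and Cxcr3 against that of 6 plasmacytoid dendritic cell markers (right), in CPM on log axes, with 1 point per library. FVB BM IMs combine the highest neutrophil sums with 1.18 to 3.28 CPM of Cxcr2, and lymph node TIMs span 252 to 1445 CPM of plasmacytoid dendritic cell markers and 3.86 to 44.9 CPM of Cxcr3.

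Cxcr3, the receptor of the interferon-induced chemokines, rose in lymph node TIMs, where its libraries were widely scattered. It was 3.98, 7.66 and 4.58 CPM in FVB BM IMs, 10.5, 12.1, 3.36, 14.2 and 7.34 CPM in primary tumor TIMs and 26.8, 31.1, 44.9, 23.6 and 3.86 CPM in lymph node TIMs. It was 3.43, 2.92 and 3.21 CPM in DBA2 BM IMs and 4.26, 5.53, 4.89, 2.82 and 5.58 CPM in lung TIMs. In the lymph node 4 of 5 libraries were above all FVB BM IM libraries and replicate 5 was below them all. The log2 fold change was 2.27 in lymph node TIMs (SE 0.65, adjusted p = 0.0196 by edgeR), 0.79 in primary tumor TIMs (SE 0.43, adjusted p = 0.133) and 0.46 in lung TIMs (SE 0.28, adjusted p = 0.274). Without lymph node replicate 5 it was 2.55 (SE 0.34, adjusted p = 0.000689), and the call was lost without FVB BM IM replicate 1 or replicate 3, with adjusted p up to 0.0814. Lymph node and primary tumor TIMs differed by 1.46 (SE 0.54, adjusted p = 0.107), and by 1.74 without lymph node replicate 5 (adjusted p = 0.0157). The 6 markers of plasmacytoid dendritic cells, a cell type known for CXCR3, were read beside it. The gate required CD11b, which these cells carry little of. Their sum was 47.1 to 48.6 CPM for FVB marrow, 315 to 581 CPM for primary tumor TIMs and 1133, 844, 1445, 523 and 252 CPM for lymph node replicates 1 to 5. It was 89.5 to 108 CPM for DBA2 marrow, where Klk1 and Cox6a2 were at 3 counts or fewer in every library, and 173 to 254 CPM for lung TIMs. Siglech, a receptor that marks these cells, was 328, 245, 477, 131 and 37.1 CPM in the same lymph node libraries and 0.341 to 1.31 CPM in FVB BM IMs. In lymph node TIMs, replicate 3 was highest and replicate 5 lowest for both Cxcr3 and the marker sum. In primary tumor TIMs, replicate 3 was lowest for both. In the other groups the sum did not follow this order throughout. DBA2 BM IMs had a higher marker sum than FVB BM IMs and less Cxcr3 (2.92 to 3.43 against 3.98 to 7.66 CPM). That higher sum came from Bst2 (50.9 to 71.8 against 16.3 to 21.9 CPM) and Tcf4 (36.0 to 38.4 against 23.4 to 31.4 CPM). Siglech (0 to 0.472 against 0.341 to 1.31 CPM) and Ly6d (0.0719 to 0.698 against 0.284 to 1.05 CPM) were not higher. Of 4 markers tested between the strains, 1 was higher in DBA2 and 3 did not pass. In lung TIMs, replicate 2 was lowest for the sum (173 CPM), with the lowest Bst2 (67.2 CPM) and Tcf4 (59.7 CPM), and not for Cxcr3 (5.53 CPM). Siglech was there highest in replicate 5 (55.4 CPM), then in replicate 2 (27.1 CPM), as Cxcr3 was. It was lowest in replicate 3 (4.34 CPM), whereas Cxcr3 was lowest in replicate 4. Lymph node replicate 5 was above FVB BM IMs for the sum and below them for Cxcr3. NK and T cell markers summed to 12.2 to 34.1 CPM in lymph node TIMs and 26.3 to 30.0 CPM in FVB BM IMs, but did not move together. Of 8 tested between these groups by edgeR, 2 were higher in lymph node TIMs, 1 was lower and 5 did not pass. Cd3e and Cd8a were at 3 counts or fewer in every FVB BM IM library. The part of either cell type in the level of Cxcr3 was not tested.

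Directly compared by edgeR, the 2 LN2E1 sites differed in 1 member, Cxcr2, which was lower in the lymph node, where 5.55% of all genes were lower and 6.15% higher. DESeq2 gave no p for Cxcr2, and with it Cx3cr1 and Cxcr3 passed, both higher in the lymph node (adjusted p = 0.0384 and 0.0321). Cx3cr1 was 0.71 higher on the log2 scale in the lymph node (SE 0.25) and did not pass (adjusted p = 0.0872), Ccr1 differed by -0.37 (SE 0.18, adjusted p = 0.221) and Ccr2 by -0.27 (SE 0.12, adjusted p = 0.195). Between the models, the change from BM IMs to TIMs differed for Cxcr2 and Cxcr4, where 26.5% of all genes differed, and the other 5 members did not pass. Set in order of level, 0 of the 28 pairs of groups next to each other in the order of a member passed the exact permutation test after adjustment (smallest adjusted p = 0.0835), and 8 unadjusted p were under 0.05. The smallest p that 3 against 5 libraries allow is 0.0179, so this does not show that neighbors were alike. For Ccr1 the step between lymph node TIMs and DBA2 BM IMs was the one without overlap (1.70 on the log2 scale), for Ccr2 the larger of 2 such steps was that between lung TIMs and DBA2 BM IMs (1.03), and for Cxcr4 the step was that between FVB BM IMs and lymph node TIMs (1.16).

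The ligands of these receptors were measured in the same sorted cells. Of 19 ligand genes, 14 rose and 2 fell in primary tumor TIMs (19 tested), 10 rose and 3 fell in lymph node TIMs (17 tested), and 12 rose and 0 fell in lung TIMs (18 tested). Over all genes 33.3%, 20.2% and 13.9% rose. Several were near 0 in BM IMs and entered the test through the TIM libraries, so these counts describe the list and support nothing further. Ccl2, the main ligand of CCR2, averaged 59.1 CPM in naive FVB marrow, 385 CPM at the primary site and 527 CPM in the lymph node, a log2 fold change of 2.69 (SE 0.40, adjusted p = 0.000372 by edgeR) and 3.16 (SE 0.52, adjusted p = 0.00104). In DBA2 mice Ccl2 averaged 104 CPM in BM IMs and 508 CPM in lung TIMs (2.20, SE 0.49, adjusted p = 0.00987). Ccl7 and Ccl12, which also bind CCR2, rose in all 3 comparisons. Ccl7 was at 0.147, 68.6 and 67.1 CPM in the FVB groups and at 0.464 and 37.1 CPM in the DBA2 groups, in the order marrow, primary tumor, lymph node and marrow, lung. Ccl12 was, in that order, at 0.11, 24.2 and 38.5 CPM and at 0.089 and 10.6 CPM. Ccl8 passed in primary tumor TIMs only, at 10.4 CPM against 0.569 CPM in marrow (log2 fold change 4.17, SE 0.30, adjusted p = 2.86e-06).

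The CCR1 ligands moved in both directions. Ccl3 fell in the LN2E1 model, from 304 CPM in marrow to 128 and 77.6 CPM in primary tumor and lymph node TIMs (log2 fold change -1.27, adjusted p = 0.00018, and -1.97, adjusted p = 0.000195 by edgeR), and rose from 216 to 408 CPM in lung TIMs (0.84, adjusted p = 0.0237). The change in primary tumor TIMs minus that in lung TIMs was -2.09 (SE 0.30, adjusted p = 0.000369). Ccl5, a ligand of CCR1, rose in all 3 comparisons, from 1.96 to 34.5 and 25.1 CPM and from 0.225 to 6.64 CPM. Ccl6 and Ccl9 passed in lung TIMs only, with log2 fold changes of 1.20 and 0.57, and both changes differed from those in primary tumor TIMs (adjusted p = 0.00184 and 0.0172 for the interaction). The 3 CXCR3 ligands Cxcl9, Cxcl10 and Cxcl11, which interferons induce, rose in all 3 comparisons. Cxcl10 went from 4.52 to 299 and 379.8 CPM in LN2E1 TIMs (6.03 and 6.40 on the log2 scale) and from 13.6 to 120.2 CPM in lung TIMs (3.07), Cxcl9 from 0.926 to 153 and 144 CPM and from 1.13 to 60.6 CPM, and Cxcl11 from 0.158 to 108 and 106 CPM and from 0.127 to 30.2 CPM.

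Of the CXCR2 ligands, Cxcl1, Cxcl2 and Cxcl3 rose in both LN2E1 groups. Cxcl2 rose from 59.5 to 785 and 522 CPM, Cxcl1 from 0.481 to 39.4 and 12.2 CPM and Cxcl3 from 1.01 to 32.0 and 9.33 CPM. In lung TIMs Cxcl3 passed, from 2.97 to 13.7 CPM, and Cxcl1 (adjusted p = 0.084) and Cxcl2 (adjusted p = 0.0517) did not. The change in primary tumor TIMs exceeded that in lung TIMs for Cxcl1 by 4.17 (adjusted p = 0.0039), for Cxcl2 by 2.80 (adjusted p = 0.00156) and for Cxcl3 by 2.85 (adjusted p = 0.0148) on the log2 scale, as it did for Cxcr2. Cxcl5 had 0 counts in every FVB BM IM library and 3 to 55 counts in primary tumor TIMs. Its mean there, 0.34 CPM, was at least 9.97-fold higher than 3 counts in the shallowest BM IM library. Ppbp, a platelet chemokine, fell from 29.0 CPM to 0.581 and 0.0808 CPM in the LN2E1 groups. Cx3cl1, the ligand of CX3CR1, rose to 20.0 CPM in primary tumor TIMs from 0.0152 CPM, where epithelial and tumor markers summed to 123 to 693 CPM against 1.30 to 2.06 CPM in FVB BM IMs, and their part was not tested. Rarres2, which encodes the CCRL2 ligand chemerin, averaged at most 1.38 CPM in a group, and Cxcl12, the ligand of CXCR4, at most 1.99 CPM. Rarres2 rose in primary tumor TIMs (log2 fold change 2.40, adjusted p = 0.0346 by edgeR). Its mean in lung TIMs was at least 33.4-fold higher than 3 counts in the shallowest DBA2 BM IM library, with 0 to 226 counts in single libraries. Cxcl12 fell in lymph node TIMs, from 1.99 to 0.0309 CPM (adjusted p = 0.027 by edgeR).

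Other chemokine receptor genes were read beside the members. Ccr9, a receptor of gut homing that plasmacytoid dendritic cells also carry, rose from 0.728 to 60.0 and 126 CPM in LN2E1 TIMs and from 0.65 to 7.97 CPM in lung TIMs. Ccr7, the receptor that leads dendritic cells into lymph nodes, rose from 0.153 to 23.4 and 6.59 CPM in LN2E1 TIMs, and in lung TIMs it was at 1.18 against 0.256 CPM and did not pass (adjusted p = 0.232). Of the 4 atypical receptors, Cxcr7 (Ackr3), a scavenger of CXCL12, rose in all 3 comparisons. Its mean in primary tumor TIMs, 3.54 CPM, was at least 104-fold higher than 3 counts in the shallowest FVB BM IM library. The mean in lymph node TIMs, 1.14 CPM, was at least 33.4-fold higher. Single libraries held 161 to 487 counts in primary tumor, 0 to 162 in lymph node and 0 to 259 in lung TIMs. Darc (Ackr1) fell in primary tumor TIMs, from 0.728 to 0.0387 CPM (adjusted p = 0.00756), and Ccbp2 (Ackr2) and Ccrl1 (Ackr4) averaged at most 0.492 CPM in a group. Ccbp2 was tested in primary tumor TIMs, where it did not pass (adjusted p = 0.437), and Ccrl1 was under the filter on low counts.

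Receptors of other attractants were listed as well. Of 9 genes, 9 rose in primary tumor TIMs, 7 in lymph node TIMs and 6 in lung TIMs, and 0 fell, where 33.3%, 20.2% and 13.9% of all genes rose, with a median log2 fold change of 2.14, 2.28 and 2.12. C3ar1, the receptor of complement C3a, rose from 2.18 to 114 and 129 CPM and from 3.88 to 41.6 CPM, and C5ar1, that of C5a, from 118 to 628 and 725 CPM and from 95.9 to 330.3 CPM. Cmklr1, the signaling receptor of chemerin, rose from 0.379 to 8.67 and 7.88 CPM and from 0.287 to 6.16 CPM. Fpr1, a receptor of formyl peptides, rose in all 3 comparisons, most in lung TIMs, from 2.20 to 27.4 CPM (log2 fold change 3.56, adjusted p = 0.000154), and S1pr1, a receptor of sphingosine 1-phosphate, passed in primary tumor TIMs, at 3.76 against 0.217 CPM (adjusted p = 0.00454). Cmklr1 and S1pr1 were near 0 in marrow, so these counts too are a description.

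Signaling and desensitization genes behind these receptors held members that rose and members that fell. Of 18 genes, 8 rose and 5 fell in primary tumor TIMs (18 tested), 7 rose and 4 fell in lymph node TIMs (17 tested) and 1 rose and 3 fell in lung TIMs (17 tested), with a median log2 fold change of -0.01, 0.04 and -0.17. Of all genes, 33.3%, 20.2% and 13.9% rose and 28.6%, 17.2% and 11.0% fell, so that the counts are read here for the single genes only. Adrbk2 (Grk3), a kinase that turns off activated receptors, rose by 1.48 (SE 0.21, adjusted p = 0.000248 by edgeR) and 2.12 (SE 0.26, adjusted p = 0.000188) on the log2 scale in primary tumor and lymph node TIMs, and Rgs18, a brake on G protein signaling, fell by 1.79 and 1.71. Rgs16, another such brake, had 0 counts in every FVB BM IM library and was at least 177-fold higher in primary tumor TIMs, at 6.04 CPM. Dock2, an activator of Rac in migrating leukocytes, rose by 1.33 in lymph node TIMs. In lung TIMs the kinase Grk5 rose by 0.70 and the arrestin Arrb1 fell by 0.48. Rgs1 rose in LN2E1 TIMs from 111 to 284 and 215 CPM and fell in lung TIMs from 84.8 to 36.6 CPM (log2 fold change 1.34, 0.96 and -1.29), with a difference between the changes in primary tumor and lung TIMs of 2.64 (SE 0.43, adjusted p = 0.000832).

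By the Pearson correlation of log2 CPM over the 21 libraries, which share their groups and are given as a description among 8011 genes searched, the genes most like Ccr1 were Saa3 (r = 0.976), Glrx (0.971) and Serpinb8 (0.969). Ccr2 was most like LOC100038947 (0.945), Sirpb1b (0.939) and Uap1 (0.936), Cxcr4 was most like Anp32e (0.939), 4931408C20Rik (0.919) and Aurka (0.915), and Ccrl2 was most like Lacc1 (0.907), Pdlim4 (0.890) and Filip1l (0.879). Cxcr3 was most like Rab33b (0.898), Rell1 (0.875) and Fam3c (0.867), Cx3cr1 was most like Rnase6 (0.892), Sgcb (0.854) and Hsh2d (0.814), and Cxcr2 was most like Srxn1 (0.874), Cnnm2 (0.864) and Atp6v1a (0.859). With the group means removed, the correlation with the leading gene was 0.674 for Ccr1, 0.172 for Ccr2, 0.811 for Ccrl2, 0.596 for Cx3cr1, 0.227 for Cxcr2, 0.794 for Cxcr3 and 0.474 for Cxcr4, so that Ccrl2 and Cxcr3 stayed closest to theirs within groups. Among the members themselves, the strongest correlation was that of Ccr1 with Cxcr4 (r = -0.897).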

How the data were processed

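Total RNA of sorted IMs had been amplified and made into non-stranded libraries. Per the labels and methods, the authors trimmed reads with BBDuk, aligned them with BBMap to mm10 (GRCm38) and counted them per gene with featureCounts 1.5.2 after SAMtools 1.8. The deposited values are raw counts of 23420 genes in 21 libraries. Counting options are not given in the sources used here.

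From these counts, edgeR 4.0.16 (TMM scaling, filterByExpr with a minimum count of 10 and a total of 15, robust quasi-likelihood fit without a replicate block) tested each pair of groups over all genes, and the interaction over 4 groups. SEs were taken as the log2 fold change over the root of F and are approximate. CPM were TMM-scaled, with a prior count of 2 on the log2 scale, and levels per kilobase used GENCODE exon lengths. The ratio used a pseudocount of 1. The fits were also run on simulated counts with known changes, a simpler setting than these data, and no result above rests on that run. The 7 members, all described, and the lists of ligands, other receptors, signaling genes and markers were chosen with earlier results of these data known. Of a list, up to 3 passing genes of largest change per comparison were named, and lists of up to 5 detected genes in full. Genes named beyond that rule (C5ar1 in primary tumor and lung TIMs, Rgs1 in LN2E1 TIMs, and S100a9, Mmp9, Mmp8, Csf3r, Ngp and Siglech) were chosen after their values were seen. Alternatives were DESeq2 1.42.0 with shrunken fold changes, other size factors, no filter, all groups in 1 fit, a replicate block and leaving out each library. The labels do not say whether replicates are separate animals and the methods call them technical, so p-values measure the spread between these samples only. No 2 libraries agreed within sampling noise. Some items of these lists are not reported here.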

Additional observations from a re-analysis of the deposited data

Results flagged for a closer look

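Cxcr2 in primary tumor TIM replicate 4 was at 73.8 CPM, a gap to the next library of 0.901 of the range of the group. It was the only library found to stand this far from its group among 24 sets of 4 or more libraries tested, and chance gives about 1 in 20. Of 10 neutrophil markers, 7 were also highest in that library within its group, S100a9 and Mmp9 among them, and Camp, Mmp8 and Ngp were not. Their part was not tested. Without it, the rise of Cxcr2 in primary tumor TIMs still passed (log2 fold change 2.87, adjusted p = 0.000229 by edgeR).

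Cxcr2 and Cxcr4 changed by different amounts in the 2 models. The change of Cxcr2 in primary tumor TIMs exceeded that in lung TIMs by 3.91 on the log2 scale (adjusted p = 0.00209, interaction term of edgeR). For Cxcr4 the difference was 0.80 (adjusted p = 0.0309), and over the fits without 1 library its adjusted p ran from 0.0224 to 0.0902. Strain, tumor line and tissue differ together between the models and cannot be told apart.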

How the results depend on the processing

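Ccr1 passed in its 3 comparisons of TIMs with BM IMs under every alternative run, and Cxcr4 in primary tumor and lung TIMs. No label ties same-numbered libraries to 1 animal or batch, and they correlated from -0.297 to 0.297 over 8016 genes. In lymph node TIMs against FVB BM IMs the 3 correlations were 0.28, 0.0807 and 0.297, and each library was most like its own number, a hint from the data and not the design. With the replicate number as a block, 3 members changed there instead of 6, without Ccrl2, Cxcr2 and Cxcr4. Between the LN2E1 sites 0 changed. Over all genes the block also lowered the calls, from 4969 to 3566 of 13273 and from 1578 to 533 of 13488. Under it Ccrl2 in primary tumor TIMs missed the threshold, where calls fell from 9025 to 5954 of 14569 genes. Between the LN2E1 sites 3 members passed with all 5 groups in 1 fit, where 2197 of 15357 genes did. With DESeq2 it was 2 (3074 of 15889 genes), and without 1 library 0 to 1 (889 to 2256 genes). The change differed between the models for 1 member without the filter on low counts (3851 of 19222 genes). It did so for 1 with all 5 groups in 1 fit (3188 of 15357 genes) and for 1 to 2 without 1 library (2734 to 4708 genes). Some small changes that did not pass turned sign. Cx3cr1 in lung TIMs was 0.018 with all 5 groups, 0.16 under the block, and -0.16 to 0.087 without 1 library. Cxcr2 in lung TIMs ran from -0.38 to 0.060. Between the LN2E1 sites Ccrl2 was -0.0071 with other size factors, -0.0068 with DESeq2 and -0.0054 to 0.076 without 1 library, and Cxcr4 ran from -0.0028 to 0.35. Ccrl2 ran from -0.10 to 0.16 between the strains and from -0.21 to 0.044 between the models. The cause was not tested. The log2 ratio of Cx3cr1 to Ccr2 ran from -1.15 to -0.93 in lung TIMs, from 0.81 to 1.27 between the LN2E1 sites and from 0.42 to 0.69 in lymph node TIMs, which passed without lymph node replicate 4 (adjusted p = 0.0476, exact permutation test). Scaling by total count raised levels in BM IMs to 803 and 1506 CPM of Ccr2 (FVB, DBA2), 95.6 and 246 CPM of Cx3cr1, 31.1 and 35.2 CPM of Cxcr4, 423 CPM of Ccrl2 in FVB, and 215 CPM of Ccr1 and 3.69 CPM of Cxcr3 in DBA2. On that scale Ccrl2 was lower in lymph node than in primary tumor TIMs (-0.085) and Cx3cr1 lower in primary tumor TIMs than in FVB BM IMs (-0.052). Depth was not limiting for the 7 genes, each above 3 counts in every library.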
